A study of Arabidopsis thaliana with 39 samples.

Results

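The genes that encode the steps of chlorophyll breakdown in Arabidopsis leaves were followed in rosettes with altered *SLIM1*, a transcription factor of the ethylene-insensitive3-like family. There are 10 of them among the 33110 genes counted. They were taken by locus identifier from a list of the pathway, not by their values, though earlier results of these data were known. All 10 passed the filter on low counts in every fit, and the smallest count of any of them in any library was 41, for *SGR2*. In order of the pathway they are *NYC1* (AT4G13250), *NOL* (AT5G04900) and *HCAR* (AT1G04620), *SGR1* (AT4G22920), *SGR2* (AT4G11910) and *SGRL* (AT1G44000), *PPH* (AT5G13800), *PAO* (AT3G44880), *RCCR* (AT4G37000, also called *ACD2*) and *TIC55* (AT2G24820).

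Chlorophyll is taken apart in the plastid when a leaf senesces, so that the proteins that bind it can be degraded without leaving a phototoxic pigment behind. Chlorophyll b is first reduced to chlorophyll a, by the chlorophyll b reductase subunits NYC1 and NOL and the reductase HCAR. The STAY-GREEN proteins then remove the central magnesium, PPH cleaves off the phytol tail, PAO opens the ring, RCCR reduces the red product and TIC55 hydroxylates the colourless one before it leaves the plastid for the vacuole. In Arabidopsis *SGR1* and *SGR2* are known as genes of senescing leaves, whereas *SGRL* is known from green leaves before senescence.

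The rosettes came from Col-0, from *slim1-cr*, a CRISPR/Cas9 line that lacks the part of *SLIM1* coding for its DNA binding domains, and from the lines *35S::SLIM1 #17* and *#25*, in which the constitutive 35S promoter drives the *SLIM1* coding sequence in Col-0. These were harvested at 30, 37 and 44 days after sowing (DAS), and Col-0 carrying the empty vector (*EV*, labelled pH7WG) at 30 DAS, which gives 13 groups of 3 libraries. Each overexpressor is a single insertion line, used as homozygous T2 plants, whose seeds were started on hygromycin plates. All plants shared the same long-day conditions on soil, and stalk and reproductive tissue were cut off before the rosette was frozen. The replicates are described as biological, with 3 libraries per group. The p-values here set a difference against the spread between replicate libraries, estimated over all groups of the fit and shared in part across genes.

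Total counts ranged from 38.4 to 46.2 M over the 39 libraries (median 45.5 M). *SLIM1* itself lay at 18.0 to 22.9 CPM (counts scaled to a common library size with TMM factors) in Col-0 and *EV*, at 0.669 to 2.59 CPM in *slim1-cr* and at 82.3 to 356 CPM in the overexpressors, so that no library went against its label. The 6 rosette leaf markers (such as *RBCS1A* and *LHCB1.3*) summed to 8974 to 64116 CPM, 7 flower organ markers to 2.79 to 59.8 CPM and 4 seed storage markers to at most 0.400 CPM, with *CRU3* and *SESA3* at 0 in every library. In such whole rosettes, fewer cells of a type and less RNA per cell cannot be told apart. When libraries were scaled by their size alone, a setting chosen after seeing the data, the median of all genes against Col-0 moved up by 0.17 in *#17* and by 0.19 in *#25* at 44 DAS, and 67.7% of the called genes in either line were higher in place of 49.1% and 49.6%. At 37 DAS the same change of scale lowered the share of higher genes from 53.8% to 43.1% in *#17* and from 56.2% to 35.6% in *#25*. No member of the pathway changed direction in a comparison it was called in.

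The 10 genes lie on all 5 chromosomes, 4 of them on chromosome 4 (TAIR10.1, RefSeq annotation). *NYC1* lies at chr4:7684156-7687006, *SGR1* at chr4:12016420-12018643, *SGR2* at chr4:7156150-7158047, *SGRL* at chr1:16708004-16709713, *PPH* at chr5:4451733-4454813 and *PAO* at chr3:16383595-16386344. The coding sequences of *SGR1* and *SGR2* were identical at 78.1% of their aligned bases, but the longest run that they share is 28 bases, against sequenced reads of 150 bases. The longest run shared by any other pair of members was 17 bases. The exons of *TIC55* share 480 bases with AT2G08060 and 83 bases with AT2G24830 on the opposite strand. Those of *RCCR* share 167 bases with AT4G37010, and those of *PAO* 11 bases with AT3G44870, on the same strand. How the counting treated such overlaps is not given in the sources used here, so that part of the values of *TIC55* and *RCCR* may belong to these neighbours.

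The 250 bases upstream of the annotated gene starts are shown for *NYC1*, *SGR2*, *SGRL* and *PPH*. These members differed from Col-0 in both overexpressors at 44 DAS, and their windows hold no exon of another gene. They are read 5′ to 3′ along the gene from the RefSeq genome of the same name. Capitals mark matches, on either strand, to CACGTG (the G-box), to ACGTGNC (a core of abscisic acid response elements) and to TACAT (a core of sites bound by ethylene-insensitive3-like factors).
NYC1 upstream window, chr4:7687007-7687256, minus strand: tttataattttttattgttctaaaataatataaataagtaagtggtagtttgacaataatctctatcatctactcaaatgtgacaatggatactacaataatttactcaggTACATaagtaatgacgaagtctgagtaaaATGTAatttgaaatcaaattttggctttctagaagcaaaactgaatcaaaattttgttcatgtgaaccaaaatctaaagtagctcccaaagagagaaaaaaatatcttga
SGR2 upstream window, chr4:7155900-7156149, plus strand: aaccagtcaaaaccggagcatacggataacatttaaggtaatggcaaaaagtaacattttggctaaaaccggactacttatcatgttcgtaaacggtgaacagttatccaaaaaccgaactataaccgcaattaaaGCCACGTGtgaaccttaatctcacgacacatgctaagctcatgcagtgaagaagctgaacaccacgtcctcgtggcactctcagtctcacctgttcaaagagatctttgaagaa
SGRL upstream window, chr1:16709714-16709963, minus strand: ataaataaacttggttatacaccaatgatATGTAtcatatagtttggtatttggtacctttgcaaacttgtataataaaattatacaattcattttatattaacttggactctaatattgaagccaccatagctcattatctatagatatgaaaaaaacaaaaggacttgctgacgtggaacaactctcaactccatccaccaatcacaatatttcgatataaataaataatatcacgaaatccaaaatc
PPH upstream window, chr5:4454814-4455063, minus strand: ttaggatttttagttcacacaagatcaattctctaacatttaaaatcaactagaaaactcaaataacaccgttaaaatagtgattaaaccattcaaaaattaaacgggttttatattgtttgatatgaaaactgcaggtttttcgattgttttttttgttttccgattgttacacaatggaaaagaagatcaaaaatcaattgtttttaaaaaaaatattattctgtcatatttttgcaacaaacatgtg

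In the *SGR2* window the G-box and the ACGTGNC core overlap, 112 and 114 bases before the gene start. CACGTG was found in 2 of the 10 members (*NOL* and *SGR2*) and in 6.49% of the upstream windows of 27443 genes. ACGTGNC was found in the same pair and in 8.57% of all windows. TACAT was found in 6 of the 10 and in 52% of all windows, and the window of *PPH* holds none of these letters on either strand. These matches are a description of the letters and not of sites in use, and the windows of *NOL*, *SGR1*, *PAO* and *TIC55* are not printed because they run into exons of neighbouring genes.

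In 30-day-old Col-0 rosettes the level per kilobase of exon was highest for *SGRL*, with 119 ± 3.66 CPM per kb (SD, n = 3), followed by *TIC55* with 70.1 ± 0.917 CPM per kb and *NYC1* with 64.1 ± 4.39 CPM per kb. *PAO*, *RCCR* and *PPH* followed at 50.9 ± 1.22, 37.4 ± 3.85 and 28.2 ± 0.314 CPM per kb, and *SGR2* was lowest with 3.07 ± 0.392 CPM per kb. *NOL* and *SGR1* were neighbours in this order whose SDs overlapped, at 14.6 ± 2.07 and 12.3 ± 0.584 CPM per kb. In *#25* at 44 DAS the order was a different one. There *NYC1* led with 285 ± 69.9 CPM per kb, *PPH* and *PAO* followed with 169 ± 11.9 and 138 ± 9.15 CPM per kb, and *SGRL* was next to last with 8.22 ± 0.377 CPM per kb, above *HCAR* with 7.31 ± 0.548 CPM per kb. Across the 13 groups the means of *SGR2* spanned 29.9-fold and those of *SGRL* 14.6-fold, while *HCAR* spanned 1.70-fold and *NOL* 1.90-fold.

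**Figure D1:**
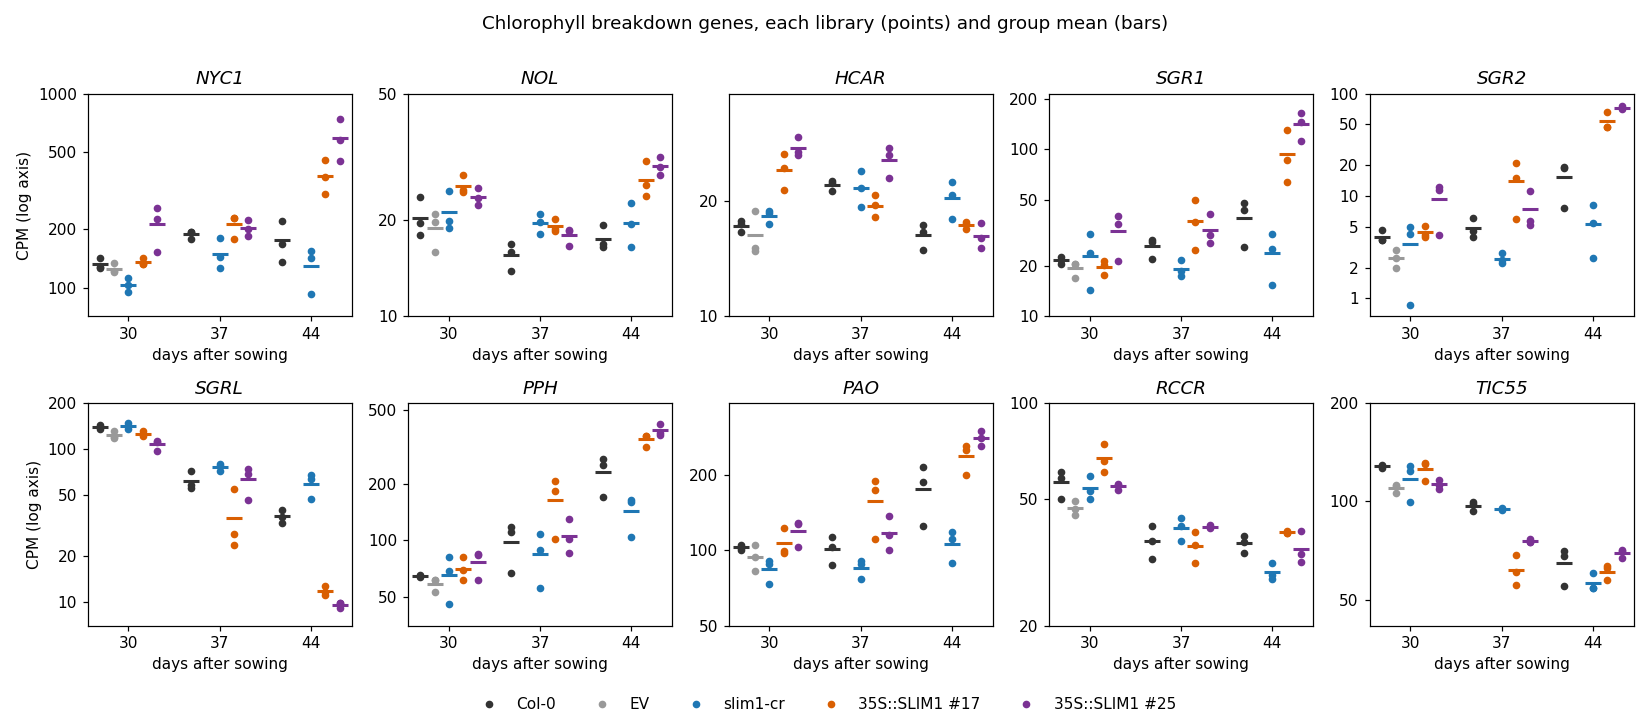
Level of each gene in every library, in CPM on a log axis, against days after sowing, with points for libraries and bars for group means of 3. At 44 DAS the overexpressors lie above Col-0 for *NYC1*, *SGR1*, *SGR2*, *PPH* and *NOL* and below it for *SGRL*, which lay between 9.13 and 12.8 CPM in their 6 libraries.

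The comparison with Col-0 at 44 DAS asks which steps of the pathway differ in old rosettes with more or less *SLIM1*. Both overexpressors held more transcript of *NYC1*, *NOL*, *SGR1*, *SGR2* and *PPH* than Col-0 and less of *SGRL*, and *PAO* was higher in *#25* as well. In *#17* 5 members were higher and 1 was lower (edgeR quasi-likelihood test, adjusted p below 0.05), where 19.8% of all genes were higher and 20.6% lower. In *#25* 6 members were higher and 1 was lower, where 22.8% of all genes were higher and 23.2% lower. The median log2FC of the 10 members was 0.52 in *#17* and 0.74 in *#25*, against -0.01 and 0.01 over all genes tested. Both lines were compared with the same Col-0 libraries, so their values are not independent of each other.

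Of the genes for the reduction of chlorophyll b, *NYC1* differed most. Its level at 44 DAS was 137, 169 and 221 CPM in Col-0 replicates 1, 2 and 3, 305, 456 and 371 CPM in *#17* and 577, 739.5 and 451 CPM in *#25*. Every overexpressor library lay above every Col-0 library. *NYC1* was 2.17-fold higher in *#17* (log2FC 1.11 ± 0.26 (SE), adjusted p = 0.00635) and 3.44-fold higher in *#25* (log2FC 1.78 ± 0.26 (SE), adjusted p = 0.000415). Its partner *NOL* was at 16.5, 19.3 and 16.8 CPM in Col-0, 30.7, 25.8 and 23.8 CPM in *#17* and 27.7, 31.6 and 29.4 CPM in *#25*, again without overlap but over a smaller range (log2FC 0.62 ± 0.14 and 0.79 ± 0.14, adjusted p = 0.00564 and 0.00127). *HCAR*, the last reductase of this branch, was not called in either line (log2FC 0.10 ± 0.10 and 0.03 ± 0.10).

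The 3 magnesium-removing genes did not move together. *SGR1*, the main dechelatase gene of senescing leaves, was at 26.1, 43.5 and 47.5 CPM in Col-0, 63.8, 131 and 86.7 CPM in *#17* and 147, 166 and 112 CPM in *#25*. *SGR2*, its close copy, was at 7.66, 19.3 and 18.9 CPM in Col-0, 46.8, 66.8 and 47.5 CPM in *#17* and 72.9, 75.6 and 70.2 CPM in *#25*. For both genes all overexpressor libraries were above Col-0, in which replicate 1 was the lowest library. *SGR1* was higher with log2FC 1.27 ± 0.32 (SE), adjusted p = 0.0103 in *#17* and log2FC 1.89 ± 0.33 (SE), adjusted p = 0.00111 in *#25*, and *SGR2* with log2FC 1.82 ± 0.40 (SE), adjusted p = 0.00468 in *#17* and log2FC 2.28 ± 0.40 (SE), adjusted p = 0.00119 in *#25*. *SGRL*, the dechelatase gene of green leaves, was at 40.2, 32.9 and 35.8 CPM in Col-0 and fell to 11.6, 11.2 and 12.8 CPM in *#17* and 9.85, 9.93 and 9.13 CPM in *#25*. Its libraries separated the groups without overlap in the opposite direction (log2FC -1.60 ± 0.14 (SE), adjusted p = 2.76e-05 in *#17*, and log2FC -1.88 ± 0.14 (SE), adjusted p = 1.01e-05 in *#25*). The sums of leaf markers and of late senescence markers also differed from Col-0 at 44 DAS. The 6 leaf markers summed to 30879 to 39998 CPM in Col-0, 12294 to 17812 CPM in *#17* and 8974 to 11272 CPM in *#25*. The 6 late senescence markers (such as *SAG12* and *BFN1*) summed to 568 to 1027, 1456 to 2035 and 1547 to 2542 CPM. Of the leaf markers 5 were called lower in *#17* and 6 in *#25*. Among the late senescence markers only 2 were called higher in *#17*, against 5 in *#25*. Of 9 clock genes 3 lay above and 5 below Col-0 in *#17*, against 1 and 4 in *#25*, with sums of 444 to 512 and 504 to 512 CPM against 626 to 691 CPM in Col-0. The part of these lists in the results was not tested.

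For the later steps the fitted differences were smaller in size than those of *NYC1*, *SGR1* and *SGR2*, which was not tested. *PPH*, the pheophytinase gene, was at 170.1, 273 and 254 CPM in Col-0, 364, 363 and 318 CPM in *#17* and 369, 419 and 376 CPM in *#25*, and *PAO*, the gene of the ring-opening oxygenase, at 125, 215 and 186 CPM, 259, 251 and 199.5 CPM and 260.2, 297 and 279 CPM. Col-0 replicate 1 was again lowest for both, and for *PAO* the lowest *#17* library lay within the Col-0 range. *PPH* was higher in both lines (log2FC 0.59 ± 0.20 (SE), adjusted p = 0.0376 in *#17*, and log2FC 0.77 ± 0.20 (SE), adjusted p = 0.0101 in *#25*), and *PAO* was called in *#25* only (log2FC 0.70 ± 0.19 (SE), adjusted p = 0.0129, against log2FC 0.44 ± 0.19 (SE), adjusted p = 0.0906 in *#17*). *RCCR* and *TIC55*, the last plastid steps, were called in neither line, with log2FC 0.13 ± 0.09 and -0.02 ± 0.09 for *RCCR* and -0.07 ± 0.10 and 0.14 ± 0.10 for *TIC55*. With library size alone *PAO* (log2FC 0.62, adjusted p = 0.017) and *RCCR* (log2FC 0.30) were called in *#17* and *TIC55* in *#25* (log2FC 0.33). *PAO* was also called in *#17* with all libraries in 1 fit (log2FC 0.43, adjusted p = 0.0455). The 7 calls of *#25* were made whichever single library was left out. In *#17* the call of *PPH* was lost without Col-0 replicate 1 or 3 or any of the *#17* replicates 1 to 3 (log2FC 0.41 to 0.66), and *PAO* was called without Col-0 replicate 2 (log2FC 0.62). The call of *PPH* in *#17* was also lost when only both groups compared were fitted (adjusted p = 0.0522) or when all libraries were fitted together (adjusted p = 0.061), and over the other alternatives without a library left out it was kept.

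**Figure D2:**
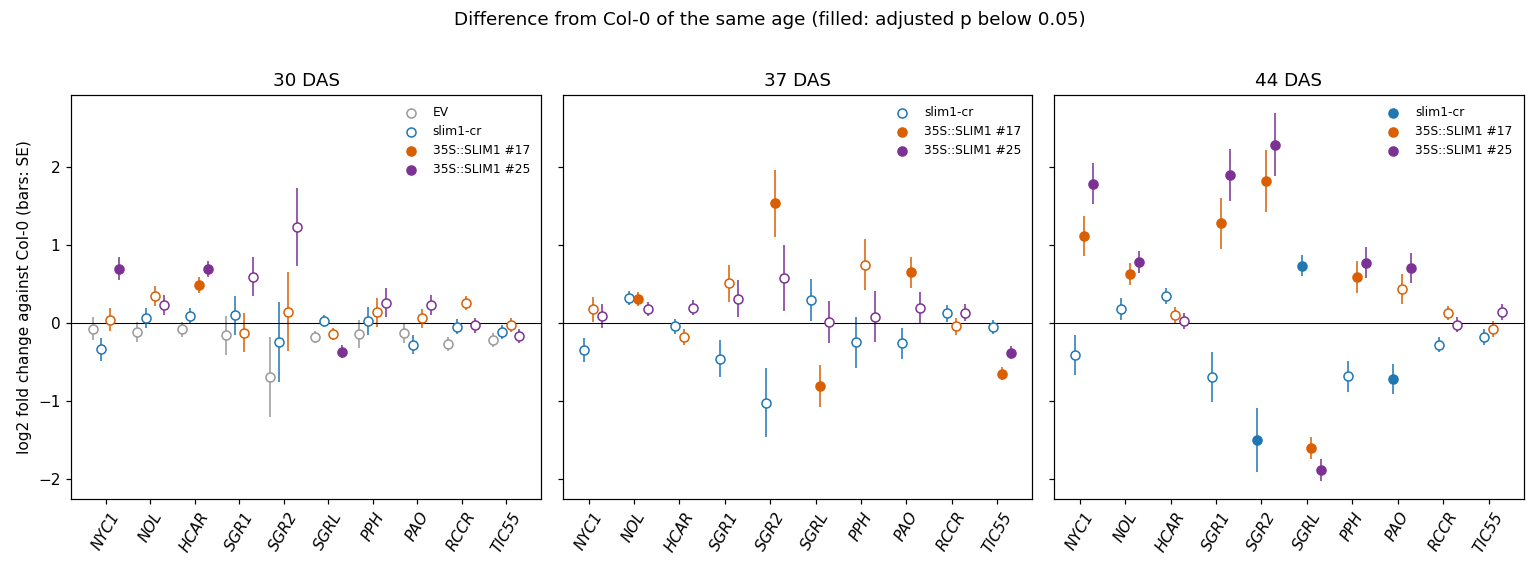
Difference of each gene from Col-0 of the same age, as log2 fold change with its SE, at 30, 37 and 44 DAS, with filled points for adjusted p below 0.05 (3 libraries per group). At 44 DAS *SGR2* has the highest points, 1.82 in *#17* and 2.28 in *#25*, *SGRL* the lowest, -1.60 and -1.88, and the *slim1-cr* points of both genes lie on the other side of 0.

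In *slim1-cr* at 44 DAS 1 member was higher and 2 were lower, where 6.21% of all genes were higher and 3.97% lower. *SGRL* was at 67.6, 46.9 and 63.2 CPM, all above the Col-0 values given above (log2FC 0.73 ± 0.13 (SE), adjusted p = 0.0357). *SGR2* was at 5.47, 8.20 and 2.46 CPM, where replicate 2 overlapped with the lowest Col-0 library (log2FC -1.50 ± 0.41 (SE), adjusted p = 0.046). *PAO* was at 110.2, 118 and 88.6 CPM, below all Col-0 libraries (log2FC -0.71 ± 0.19 (SE), adjusted p = 0.0455). These calls depended on single libraries. Each of the 3 was lost without Col-0 replicate 2, Col-0 replicate 3, *slim1-cr* replicate 1 or *slim1-cr* replicate 3, with log2FC then of 0.63 to 0.72 for *SGRL*, -1.51 to -1.16 for *SGR2* and -0.75 to -0.53 for *PAO*. With only both groups in the fit none of them was called (adjusted p = 0.162 for each), where 6 of 19904 genes were higher and 6 lower. With no filter *SGR2* and *PAO* were not called (adjusted p = 0.052 and 0.0504). *SGR2* was not called with library size alone either (adjusted p = 0.0505). *PPH* lay at 160.5, 165 and 104 CPM without overlap with Col-0 and just missed the threshold (log2FC -0.68 ± 0.20 (SE), adjusted p = 0.0536). It was called without Col-0 replicate 1 or *slim1-cr* replicate 2 (log2FC -0.87 to -0.79), and *HCAR* without *slim1-cr* replicate 2 and *TIC55* without Col-0 replicate 1 (log2FC 0.44 and -0.28). *NYC1* and *SGR1* were not called (log2FC -0.41 ± 0.26 and -0.69 ± 0.32). The late senescence markers summed to 329.6 to 717 CPM in *slim1-cr*, lowest in replicate 3, which was also its lowest library for *NYC1*, *SGR1*, *SGR2*, *PPH* and *PAO*. Leaf markers summed to 43215 to 48449 CPM. The part of either list in these values was not tested.

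At 37 DAS more members were called in *#17* than in *#25*, and so were more of all genes. Compared directly at this age, the lines differed in *HCAR* alone, which was called against Col-0 in neither. In *#17* 3 members were higher and 2 were lower, where 19.8% of all genes were higher and 17.0% lower. *SGR2* was at 3.95, 6.08 and 4.60 CPM in Col-0, against 15.03, 20.98 and 6.03 CPM in *#17*, and replicate 3 of *#17* lay inside the Col-0 range (log2FC 1.53 ± 0.43 (SE), adjusted p = 0.0181). *PAO* was at 87.4, 112 and 103 CPM in Col-0, against 174, 188 and 111 CPM in *#17*, with replicate 3 again within Col-0 (log2FC 0.65 ± 0.20 (SE), adjusted p = 0.0274). *SGRL* was at 71.4, 55.8 and 57.7 CPM in Col-0, against 27.7, 23.6 and 54.7 CPM in *#17*, where replicate 3 was just below the lowest Col-0 library (log2FC -0.81 ± 0.27 (SE), adjusted p = 0.041). *NOL* was also higher (log2FC 0.30 ± 0.09 (SE), adjusted p = 0.024). *TIC55* was at 98.02, 99.7 and 93.8 CPM in Col-0, 68.6, 60.8 and 55.7 CPM in *#17* and 75.2, 74.95 and 76.8 CPM in *#25*, so that both lines lay wholly below Col-0 (log2FC -0.65 ± 0.08 (SE), adjusted p = 0.000377 in *#17*, and log2FC -0.38 ± 0.08 (SE), adjusted p = 0.00842 in *#25*). It was the 1 member called in *#25* at this age, as lower, where 12.5% of all genes were higher and 9.74% lower. *SGR2* in *#25* was at 5.25, 11.2 and 5.70 CPM, with only replicate 2 above Col-0.

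Replicate 3 of *#17* at 37 DAS lay apart from replicates 1 and 2 for *NYC1*, *SGR2*, *SGRL*, *PPH* and *PAO*. Its leaf markers summed to 40834 CPM, against 25278 and 22806 CPM in replicates 1 and 2 and 36218 to 39022 CPM in Col-0. Its late senescence markers summed to 849 CPM, against 1020 and 1503 CPM in replicates 1 and 2 and 256 to 453 CPM in Col-0. Without it *SGR1* and *PPH* were also called, as higher (log2FC 0.73 and 1.00), so that 7 members passed in place of 5. The share of all genes called without it is not given here. The call of *SGRL* was lost without Col-0 replicate 1, 2 or 3 or *#17* replicate 1 or 2 (log2FC -0.87 to -0.59), and that of *NOL* without Col-0 replicate 2 or *#17* replicate 1 or 2 (log2FC 0.23 to 0.32). Those of *SGR2* and *PAO* were lost without Col-0 replicate 1 or 3 or *#17* replicate 1 or 2 (log2FC 1.11 to 1.49 and 0.49 to 0.66). With only both groups compared in the fit *TIC55* alone was called, where 2895 of 19912 genes were higher and 2192 lower. The call of *NOL* was lost, too, with all libraries in 1 fit (adjusted p = 0.056) and with library size alone (adjusted p = 0.0684), while *PPH* was called with all libraries in 1 fit (log2FC 0.74, adjusted p = 0.0225). Touch and wound genes (6 genes, such as *XTH22* and *JAZ10*) also differed at this age, with sums of 610.3 to 891 CPM in Col-0, 2049 to 2732 CPM in *#17* and 2765 to 3438 CPM in *#25*. Replicate 3 of *#17* held the 2049 CPM. Of the 6 late senescence markers 4 were higher in *#17* and 2 in *#25*, where 19.8% and 12.5% of all genes were. Of the 9 clock genes 1 rose above Col-0 in each line, while 5 fell below it in *#17* and 4 in *#25*, with sums of 519 to 525 and 610.1 to 633 CPM against 697 to 791 CPM in Col-0. Their part in the results at 37 DAS was not tested.

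In *slim1-cr* at 37 DAS no member was called by edgeR, where 1.40% of all genes were higher and 4.14% lower, and no member was called with any library left out. Of all genes, 5226 passed an unadjusted p under 0.05. By DESeq2 1 member, *NOL*, was called (log2FC 0.32), where 966 of 20296 genes were higher and 1875 lower. *SGR2* was at 2.35, 2.21 and 2.75 CPM and *SGR1* at 18.8, 17.5 and 21.8 CPM, both below every Col-0 library of that age, with log2FC -1.02 ± 0.44 (adjusted p = 0.174) and -0.46 ± 0.24 (adjusted p = 0.25). How many of all genes lay apart from Col-0 in this way was not counted.

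At 30 DAS few members were called. In *#17* 1 member was called, where 6.95% of all genes were called in either direction, and in *#25* 3, where 6.38% of all genes were called. *HCAR* was called in both lines. It was at 17.8, 16.6 and 17.4 CPM in Col-0, 24.5, 26.6 and 21.4 CPM in *#17* and 29.4, 26.8 and 26.5 CPM in *#25*, with no overlap (log2FC 0.49 ± 0.10 (SE), adjusted p = 0.0131 in *#17*, and log2FC 0.69 ± 0.10 (SE), adjusted p = 0.00262 in *#25*). *NYC1* was at 127, 128 and 143 CPM in Col-0, against 257, 227 and 153 CPM in *#25*, where replicate 3 was close to the highest Col-0 library (log2FC 0.69 ± 0.15 (SE), adjusted p = 0.0157). *SGRL* was lower in *#25*, at 113, 97.2 and 112 CPM against 144, 136 and 138 CPM in Col-0 (log2FC -0.37 ± 0.08 (SE), adjusted p = 0.0171). *SGR2* in *#25* was at 12.3, 11.5 and 4.17 CPM against 3.75, 3.69 and 4.61 CPM in Col-0 and was not called (log2FC 1.23 ± 0.50 (SE), adjusted p = 0.159). Replicate 3 of *#25* was the low library for *NYC1*, *SGR1*, *SGR2*, *PPH* and *PAO*, and its late senescence markers summed to 107 CPM, against 402 and 346 CPM in replicates 1 and 2. Of 9 clock genes 6 were higher and 1 lower in *#25* at this age, with sums of 632 to 688 CPM against 427 to 501 CPM in Col-0. The part of either list in these values was not tested.

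The calls of *NYC1* and *SGRL* in *#25* at 30 DAS were lost without Col-0 replicate 1 or 2 or *#25* replicate 1 or 2 (log2FC 0.54 to 0.67 and -0.40 to -0.30), and with all libraries in 1 fit (adjusted p = 0.0514 and 0.274). Col-0 replicate 1 is also the library set aside for its flower organ markers (41.5 CPM). *EV* replicates 2 and 3 stood higher in these markers (55.3 and 59.8 CPM) and were kept, because otherwise fewer than 2 *EV* libraries would have remained. Their part in the values against *EV* was not tested. The call of *HCAR* in *#17* was lost without Col-0 replicate 2 or *#17* replicate 1 or 2 (log2FC 0.42 to 0.48). Against *EV* in place of Col-0, *SGRL* was no longer called in *#25* (log2FC -0.19, adjusted p = 0.181), while *SGR2* was (log2FC 1.92, adjusted p = 0.0494), and *NOL* and *RCCR* were called in *#17*. *EV* itself had 0 members called against Col-0, where 0% of all genes were called by edgeR, 1721 passed an unadjusted p under 0.05 and DESeq2 called 82. Its 3 libraries lay below all Col-0 libraries for *SGR2* (1.98, 2.46 and 3.00 CPM, log2FC -0.69 ± 0.51), *SGRL*, *PPH*, *RCCR* and *TIC55*. How many of all genes had *EV* libraries apart from Col-0 was not counted, so this is not a result about the members. In *slim1-cr* no member was called at 30 DAS, where 4.75% of all genes were called and 4634 passed an unadjusted p under 0.05. DESeq2 called none of the members either, with 988 of 20274 genes higher and 963 lower. All *slim1-cr* libraries lay below Col-0 for *NYC1* (113, 104 and 95.3 CPM, log2FC -0.34 ± 0.15) and *PAO* (90.7, 88.4 and 73.03 CPM, log2FC -0.28 ± 0.13). For *slim1-cr*, too, the share of all genes without overlap was not counted.

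Compared directly, *#25* and *#17* differed in 1 member at 30 DAS, where 1.69% of all genes were called, in 1 at 37 DAS, where 8.25% were called, and in none at 44 DAS, where 0.00976% were called and 1528 genes passed an unadjusted p under 0.05. DESeq2 called 2, 3 and 0 members at these ages. Over all genes it called 558 higher and 609 lower of 20274 at 30 DAS and 1656 and 1786 of 20296 at 37 DAS. At 44 DAS it called 36 and 84 of 20499. *NYC1* was higher in *#25* at 30 DAS (log2FC 0.65 ± 0.15 (SE), adjusted p = 0.0423), and *HCAR* at 37 DAS (log2FC 0.38 ± 0.10 (SE), adjusted p = 0.041), where its levels were 19.5, 18.1 and 20.7 CPM in *#17* and 26.4, 23.03 and 27.6 CPM in *#25*. The first call was lost without *#17* replicate 1 or 2 or *#25* replicate 1 or 2 (log2FC 0.50 to 0.69), and the second without *#17* replicate 1 or 2 or *#25* replicate 1 or 3 (log2FC 0.32 to 0.38) and with library size alone (adjusted p = 0.067). Without *#17* replicate 3 *SGR2*, *SGRL* and *PAO* also differed between the lines at 37 DAS (log2FC -1.32, 1.26 and -0.67). At 44 DAS *SGR2* was higher in all 3 *#25* libraries than in all *#17* libraries, with log2FC 0.46 ± 0.38 and adjusted p = 0.829, which is not a call and does not show that the lines are alike. The libraries of the lines did not overlap for *SGRL*, *PPH*, *PAO* and *TIC55* either. The share of all genes whose libraries did not overlap was not counted, so this shows no difference particular to the members.

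The next comparisons follow each genotype as it aged. In Col-0 from 30 to 44 DAS 4 members were higher and 3 were lower, where 33.2% of all genes were higher and 34.0% lower. *PPH* rose from 65.3, 64.4 and 63.9 CPM to 66.8, 111 and 118 CPM at 37 DAS and 170.1, 273 and 254 CPM at 44 DAS (log2FC 1.85 ± 0.26 (SE), adjusted p = 6.15e-07). *SGR2*, *SGR1* and *PAO* rose as well (log2FC 1.93 ± 0.48, 0.85 ± 0.29 and 0.78 ± 0.18, adjusted p = 0.000851, 0.0121 and 0.000352). *SGRL* fell at each step, from 144, 136 and 138 CPM to 71.4, 55.8 and 57.7 CPM and 40.2, 32.9 and 35.8 CPM (log2FC -1.94 ± 0.19 (SE), adjusted p = 2.14e-09). *TIC55* and *RCCR*, the genes of the last plastid steps, fell too (log2FC -0.98 ± 0.09 and -0.64 ± 0.10, adjusted p = 2.51e-10 and 1.88e-06). *NYC1*, *NOL* and *HCAR* were not called over the whole span. *NYC1* was called with only the Col-0 libraries fitted (adjusted p = 0.0437), and *NOL* with library size alone (adjusted p = 0.0477). The call of *SGR1* was lost without Col-0 replicate 3 at 44 DAS (log2FC 0.68), and *NYC1* was called without Col-0 replicate 1 at 44 DAS (log2FC 0.56).

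In *slim1-cr* over the same span only *PPH* was higher (log2FC 1.14 ± 0.26 (SE), adjusted p = 0.000573), and *SGRL*, *RCCR* and *TIC55* were lower (log2FC -1.25 ± 0.19, -0.88 ± 0.10 and -1.05 ± 0.09), where 26.8% of all genes were higher and 25.3% lower. *NYC1* was called there without *slim1-cr* replicate 3 at 44 DAS (log2FC 0.51). In *#17* 5 members were higher and 4 were lower, where 36.8% and 36.6% of all genes were. In *#25* 6 were higher and 4 lower, where 36.5% and 37.0% of all genes were. In both overexpressors *NYC1*, *SGR1*, *SGR2*, *PPH* and *PAO* rose and *HCAR*, *SGRL*, *RCCR* and *TIC55* fell, and *NOL* rose in *#25* (log2FC 0.32 ± 0.12 (SE), adjusted p = 0.0219). The rise of *SGR2* was 3.60 ± 0.50 in *#17* and 2.97 ± 0.48 in *#25* on the log2 scale, and the fall of *SGRL* -3.41 ± 0.21 and -3.48 ± 0.21. *RCCR* lay at 65.9, 74.5 and 60.6 CPM in *#17* at 30 DAS and at 39.03, 39.5 and 39.1 CPM at 44 DAS, without overlap between the ages. The call of *NOL* in *#25* was lost without *#25* replicate 1 or 3 at 30 DAS or replicate 2 at 44 DAS (log2FC 0.26 to 0.30).

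The steps of single weeks were compared within each genotype. From 30 to 37 DAS all 10 members were called in *#17*, 5 higher and 5 lower, where 60.4% of all genes were called. Only 4 were called in *#25*, where 32.9% of all genes were called, 6 in Col-0, where 35.8% were, and 3 in *slim1-cr*, where 13.6% were. *SGRL* and *RCCR* fell in each of the 4 genotypes over this week (log2FC -1.83 ± 0.19 and -0.91 ± 0.10 in *#17*, -1.18 ± 0.19 and -0.62 ± 0.10 in Col-0), and so did *TIC55*. *PPH* in *#17* rose from 69.01, 61.1 and 81.7 CPM to 184, 207 and 102 CPM (log2FC 1.22 ± 0.26 (SE), adjusted p = 0.000196), with replicate 3 the lowest at 37 DAS. The calls of *SGR1* and *PAO* in *#17* were lost without replicate 2 at 37 DAS (log2FC 0.64 and 0.42). That of *NOL* in *#25* was lost without replicate 2 at 37 DAS (log2FC -0.35), and that of *TIC55* in *slim1-cr* without replicate 1 at 30 or 37 DAS (log2FC -0.30 to -0.24). Fitted on *slim1-cr* libraries alone, *RCCR* and *TIC55* were not called (adjusted p = 0.104 and 0.194). The rise of *NYC1* in Col-0 (log2FC 0.51 ± 0.20 (SE), adjusted p = 0.0434) was lost without any single one of the 6 libraries, Col-0 replicates 1 to 3 at 30 or at 37 DAS (log2FC 0.48 to 0.58), and with RLE factors (adjusted p = 0.0568). The fall of *NOL* was lost without replicate 3 at 30 DAS or replicate 2 at 37 DAS (log2FC -0.31 to -0.26). With library size alone *NOL* was not called there (log2FC -0.24) and *TIC55* not in *slim1-cr* (log2FC -0.25). That setting called *PPH* in Col-0 (log2FC 0.75, adjusted p = 0.0174) and *HCAR* in *slim1-cr* (log2FC 0.30). With TMM factors *PPH* was called in Col-0 without replicate 1 at 37 DAS (log2FC 0.83).

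From 37 to 44 DAS 9 members were called in *#25*, where 65.8% of all genes were called, 7 in *#17*, where 46.9% were, 6 in Col-0, where 51.2% were, and 3 in *slim1-cr*, where 41.6% were. In *#25* the steepest step was that of *SGR2*, from 5.25, 11.2 and 5.70 CPM to 72.9, 75.6 and 70.2 CPM (log2FC 3.30 ± 0.49 (SE), adjusted p = 1.29e-06). *SGRL* fell in the same week from 74.04, 46.5 and 69.1 CPM to 9.85, 9.93 and 9.13 CPM (log2FC -2.71 ± 0.20 (SE), adjusted p = 1.12e-11). Neither gene's libraries overlapped between the ages. The late senescence markers of *#25* summed to 297 to 565 CPM at 37 DAS and to 1547 to 2542 CPM at 44 DAS, and their part in this was not tested. The fall of *RCCR* in *#25* (log2FC -0.23 ± 0.10 (SE), adjusted p = 0.0394) was lost under DESeq2 and with RLE factors (log2FC -0.18 in both), with library size alone (log2FC -0.08), and without *#25* replicate 1, 2 or 3 at 37 DAS or replicate 1 or 2 at 44 DAS (log2FC -0.24 to -0.07). In *slim1-cr* the rise of *PPH* (log2FC 0.77 ± 0.26 (SE), adjusted p = 0.0171) was lost without replicate 2 at 37 DAS or replicate 1 or 2 at 44 DAS (log2FC 0.54 to 0.67), and *SGR2* was called without replicate 3 at 44 DAS (log2FC 1.48). The rise of *PPH* was also lost with *slim1-cr* fitted alone (adjusted p = 0.0889). *SGR1* was called in Col-0 without replicate 1 at 44 DAS (log2FC 0.79), and the call of *PAO* in *#17* was lost without replicate 3 at 37 DAS (log2FC 0.39).

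**Figure D3:**
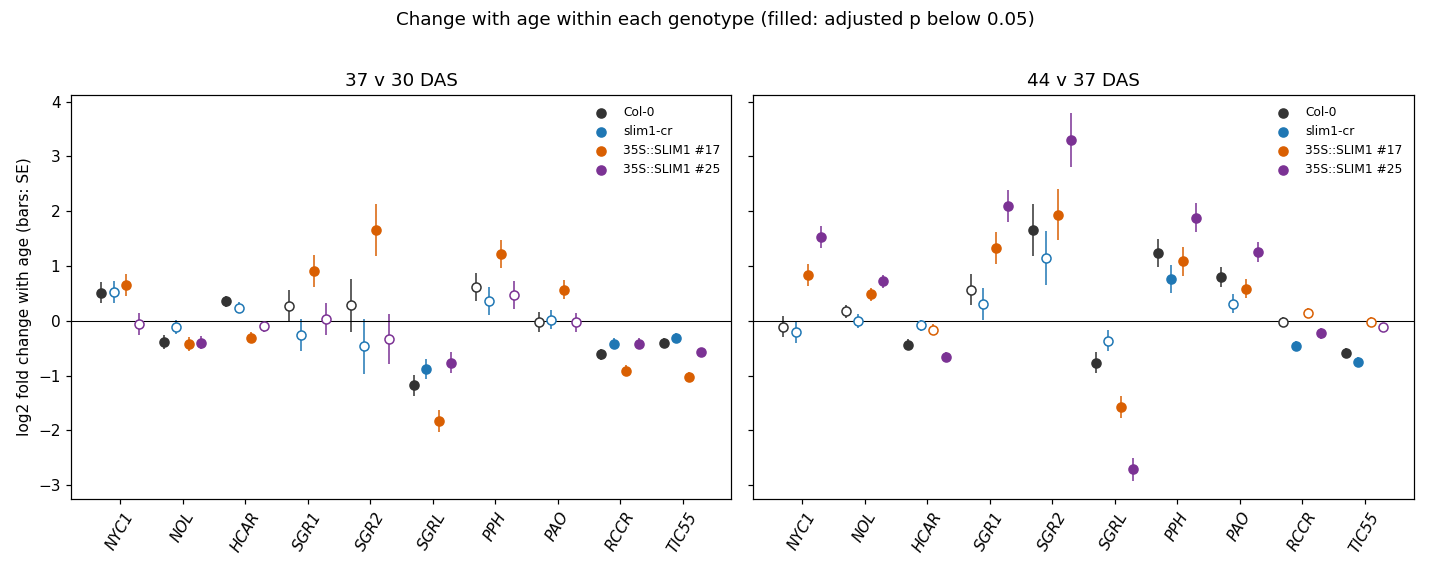
Change of each gene over each week within Col-0, *slim1-cr*, *#17* and *#25*, as log2 fold change with its SE, with filled points for adjusted p below 0.05 (3 libraries per group). From 37 to 44 DAS the *#25* points are the widest apart, from 3.30 for *SGR2* to -2.71 for *SGRL*.

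Whether the difference from Col-0 itself changed with age was tested as an interaction, in the fit over all 39 libraries, so that a difference may depart slightly from that of the log2FC fitted for each age. Between 30 and 44 DAS 4 members changed in *#17*, where 26.8% of all genes did, 5 in *#25*, where 30.2% did, and none in *slim1-cr*, where 6.81% did and 5791 genes passed an unadjusted p under 0.05. *NYC1*, *SGR1* and *SGRL* were called in both overexpressors. The log2FC of *NYC1* against Col-0 was 0.04 at 30 DAS and 1.11 at 44 DAS in *#17* (difference 1.07 ± 0.28, adjusted p = 0.00547), and 0.69 and 1.78 in *#25* (difference 1.07 ± 0.28, adjusted p = 0.00464). *HCAR* changed the other way, since it was higher than in Col-0 at 30 DAS and close to Col-0 at 44 DAS (difference -0.40 ± 0.14 and -0.68 ± 0.14, adjusted p = 0.0346 and 0.000542). For *SGR2* the interaction was not called (log2 difference 1.67 ± 0.66 in *#17* and 1.04 ± 0.65 in *#25*, adjusted p = 0.0606 and 0.238), and its call in *#17* depended on the setting. DESeq2 and library size alone called it there (log2 differences 1.68 and 1.86, adjusted p = 0.0418 and 0.0343). In *slim1-cr* DESeq2 called no member either, with 1371 of 21040 genes higher and 977 lower. There edgeR called *SGRL* without *slim1-cr* replicate 2 at 44 DAS (log2 difference 0.82). *TIC55* was called in *#25* without Col-0 replicate 3 at 44 DAS (log2 difference 0.35), by DESeq2 (adjusted p = 0.0419) and with library size alone (log2 difference 0.46, adjusted p = 0.00836).

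Between 30 and 37 DAS 2 members changed against Col-0 in *#17* (*HCAR* and *TIC55*), where 24.5% of all genes did, and 1 in *#25* (*HCAR*), where 14.8% did. None changed in *slim1-cr*, where 0.0665% did and 3217 genes passed an unadjusted p under 0.05. DESeq2 called no member in *slim1-cr*, with 165 of 21040 genes higher and 217 lower. Without *#17* replicate 3 at 37 DAS *SGR2*, *SGRL* and *PAO* were called as well (log2 differences 1.74, -1.12 and 0.79), which gives 5 in place of 2, and *RCCR* was called without *#17* replicate 3 at 30 DAS or Col-0 replicate 1 at 37 DAS (log2 difference -0.39 to -0.38). For these fits, too, the share of all genes called is not given. The call of *HCAR* in *#25* was lost without Col-0 replicate 3 or *#25* replicate 2 at 37 DAS (log2 difference -0.44 to -0.38). Of the calls between 30 and 44 DAS, that of *SGR1* was lost in *#17* without *#17* replicate 2 at 44 DAS (log2 difference 1.11) and in *#25* without Col-0 replicate 1 at 44 DAS or *#25* replicate 3 at 30 DAS (log2 difference 1.04 to 1.06). That of *NOL* in *#25* was lost without Col-0 replicate 3 or *#25* replicate 3 at 30 DAS or Col-0 replicate 1 at 44 DAS (log2 difference 0.40 to 0.49). That of *HCAR* in *#17* was lost with library size alone (log2 difference -0.22) and without Col-0 replicate 2 or *#17* replicate 2 at 30 DAS, or Col-0 replicate 1 or 2 or *#17* replicate 2 or 3 at 44 DAS (log2 difference -0.38 to -0.35).

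Over all 39 libraries *SGR2* and *SGRL* ran in opposite directions, with a Pearson r of -0.90 for log2(CPM + 0.5), while *SGR2* ran with *SGR1* (r = 0.97) and *PAO* (r = 0.97) and *SGRL* against *PPH* (r = -0.95). These are descriptions over libraries that share age and genotype, with no test. Not every library followed the pattern. At 30 DAS *#25* replicates 1 and 2 held 12.3 and 11.5 CPM of *SGR2* with *SGRL* still at 113 and 97.2 CPM. By the same measure the genes outside the pathway most like *SGRL* were *ATPD*, *GAPA-2* and *CHLI1* (r = 0.993, 0.992 and 0.991), which encode a subunit of the plastid ATP synthase, a Calvin cycle enzyme and a subunit of the magnesium chelatase of chlorophyll synthesis. Those most like *PPH* were *MYC3*, a jasmonate-responsive transcription factor gene, *DGK1*, a diacylglycerol kinase gene, and AT5G56160 (r = 0.982, 0.975 and 0.975). *SGR2* ran most closely with AT3G48020, AT4G01610 and *TBL9* (r = 0.971, 0.971 and 0.97), and *SGR1* with AT4G01610, AT3G55890 and AT3G55910 (r = 0.963, 0.962 and 0.959).

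**Figure D4:**
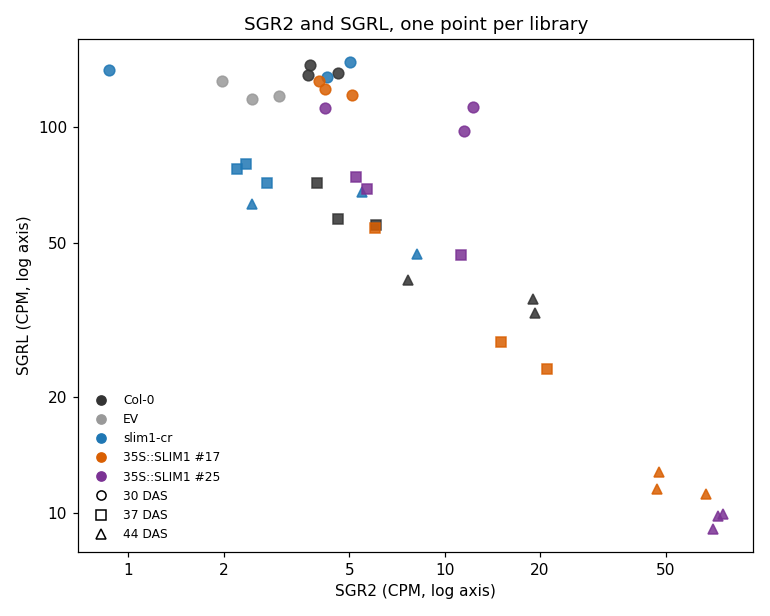
Level of *SGRL* (vertical axis) against that of *SGR2* (horizontal axis) in each of the 39 libraries, in CPM on log axes, coloured by genotype and with 1 symbol per age. The 6 overexpressor libraries at 44 DAS lie apart at the lower right, with *SGR2* from 46.8 to 75.6 CPM and *SGRL* from 9.13 to 12.8 CPM.

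A list of 17 further genes of chlorophyll catabolism and turnover was followed beside the pathway. At 44 DAS *#17* had 7 of the 17 above Col-0 and 5 below. The same count for *#25* was 8 above and 5 below, and for *slim1-cr* 0 above and 1 below, with median log2FC of 0.24, 0.39 and -0.34. Over all genes 19.8% were above Col-0 and 20.6% below in *#17*, 22.8% and 23.2% in *#25*, and 6.21% and 3.97% in *slim1-cr*, with medians of -0.01, 0.01 and 0.03. *CV*, whose product carries chloroplast proteins to the vacuole for degradation, was at 31.6 ± 8.48 against 5.01 ± 3.38 CPM (SD, n = 3) in *#17* against Col-0 (log2FC 2.67 ± 0.64, adjusted p = 0.00734), with log2FC 3.39 ± 0.65 in *#25* (adjusted p = 0.00193). *PES1*, which esterifies the released phytol with fatty acids, was higher by 2.40 ± 0.47 and 2.91 ± 0.48 (adjusted p = 0.00271 and 0.000842) on the log2 scale. *FTSH6*, a plastid protease gene, was called in *#25* only (log2FC 2.54 ± 0.53, adjusted p = 0.00294, against 1.28 ± 0.54 and 0.081 in *#17*). Its level was low, at 1.06 ± 0.576 against 0.184 ± 0.0459 CPM (SD, n = 3) in *#25* against Col-0, and it did not pass the low-count filter at 30 or 37 DAS, so that it entered the test only at the age at which *#25* was high. The 5 genes that were lower in both lines are *CLD1*, *PTC52*, *BCM1*, *CAO* and *VTE6*. They do not encode steps of the senescence pathway. *CLD1* removes phytol in the turnover of green leaves (log2FC -1.94 ± 0.12 and -2.14 ± 0.12, adjusted p = 7.65e-06 and 3.95e-06), and *CAO*, named after its value was seen like the other 3, makes chlorophyll b. The 1 gene lower in *slim1-cr*, *PES2* (log2FC -1.15 ± 0.30, adjusted p = 0.0436), a relative of *PES1*, was also named after its value was seen.

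Of 18 genes for regulators known to act on the pathway, *#17* had 5 above Col-0 and 1 below at 44 DAS. For *#25* the count was 6 above and 2 below (*PIF5* in both lines and *EIL1* in *#25*, named after their values were seen), and for *slim1-cr* 1 above and 3 below, with median log2FC of 0.43, 0.52 and -0.28, beside the same shares and medians of all genes as for the catabolism list. *NAP*, a NAC factor of leaf senescence, was at 71.5 ± 34.02 against 19.4 ± 6.56 CPM (SD, n = 3) in *#17* against Col-0 (log2FC 1.90 ± 0.37, adjusted p = 0.00255), with log2FC 2.35 ± 0.38 in *#25* (adjusted p = 0.000674). The abscisic acid factor genes *ABI5* (log2FC 1.83 ± 0.20 and 1.66 ± 0.20, adjusted p = 0.00011 and 0.000134) and *ABF2* (log2FC 0.95 ± 0.10 and 1.02 ± 0.10, adjusted p = 7.66e-05 and 3.48e-05) were higher in both lines. *NAC092*, known as *ORE1*, was called in *#25* (log2FC 1.26 ± 0.33, adjusted p = 0.00952) and not in *#17* (log2FC 0.83 ± 0.32, adjusted p = 0.0609). *EIN3*, an ethylene factor gene of the same family as *SLIM1*, was not called in any of the 3 genotypes. In *slim1-cr* *NAC046*, *NAC016* and *MYC3* were lower and *EIL1* higher (log2FC -1.15 ± 0.24, -0.90 ± 0.22, -0.47 ± 0.13 and 0.60 ± 0.14, adjusted p = 0.0359, 0.0404, 0.0455 and 0.0372), named after their values were seen. At 37 DAS 9 of the 18 were higher in *#17* and 8 in *#25*, with *MYC4* the 1 lower gene in each, and in *slim1-cr* 0 were higher and 5 lower, *NAP*, *NAC092*, *NAC046*, *NAC016* and *ABF4*, named after their values were seen. The shares of all genes at 37 DAS were 19.8% higher and 17.0% lower in *#17*, 12.5% and 9.74% in *#25*, and 1.40% and 4.14% in *slim1-cr*. The catabolism list held 16 tested genes at 37 DAS, of which *VTE5* and *CV* were higher and *CLH2* and *CLD1* lower in *#17*, *VTE5* higher and *CLH2* lower in *#25*, and none called in *slim1-cr*, chosen in the same way.

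**Figure D5:**
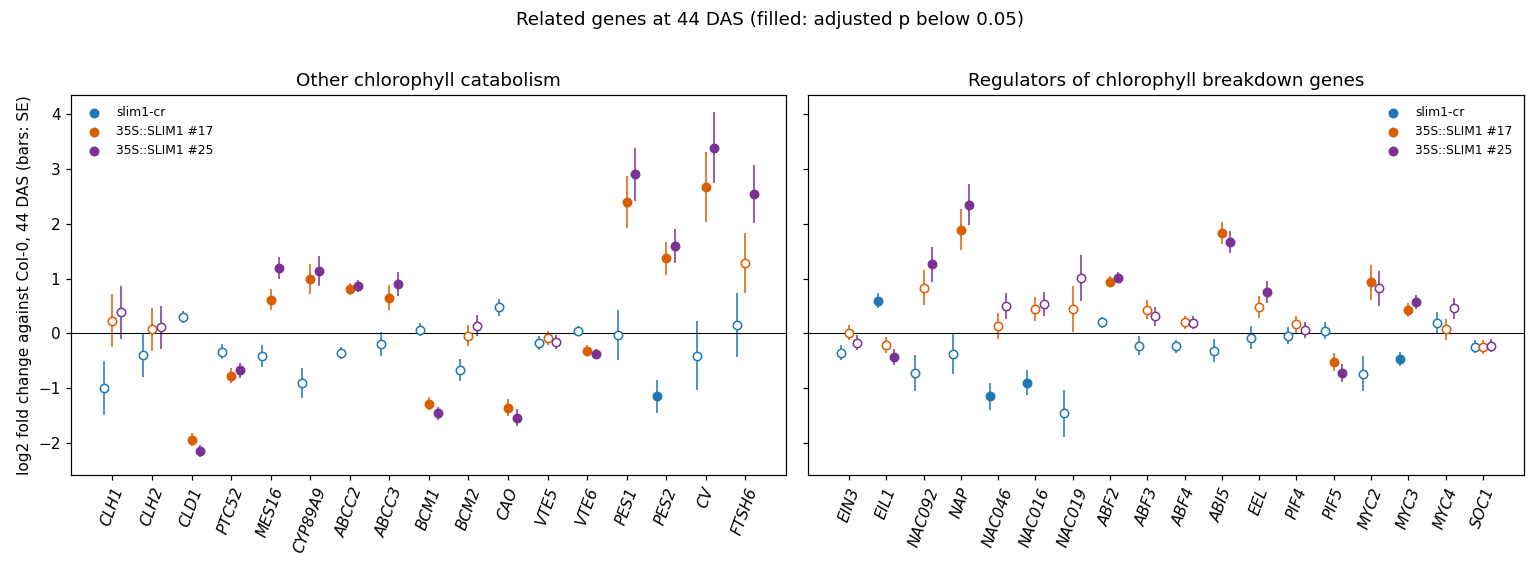
Difference from Col-0 at 44 DAS of the 17 other genes of chlorophyll catabolism (left) and of the 18 regulator genes (right), as log2 fold change with its SE, with filled points for adjusted p below 0.05 (3 libraries per group). *CV* has the highest points, 2.67 and 3.39 in the overexpressors, and *CLD1* the lowest, -1.94 and -2.14.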

How the data were processed

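RNA-seq of 39 rosette libraries (13 groups of 3) was used. Polyadenylated RNA was sequenced strand-specifically as paired ends of 150 bases. Cleaned reads were mapped by the authors in CLC Genomics Workbench (genome TAIR10, gene models Araport11), who deposited raw read counts for 33110 genes. They also deposited a normalized signal table, which holds these counts divided by DESeq2 (version 1.40.2) size factors of 0.764 to 1.15 and was used only to check this. With 38.4 to 46.2 M counts per library the spread between replicates set the precision, since chi-square divided by its degrees of freedom was 8.55 to 162 between replicates.

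Groups were taken from the genotype and age in the labels. Counts were tested in R 4.3.3 with edgeR 4.0.16 (filterByExpr, TMM factors, robust quasi-likelihood F test), with the libraries of each age in 1 fit for genotypes and all 39 libraries in 1 fit of 21040 genes for ageing and interactions. The scripts were tested on simulated data. The p-values were adjusted over all genes tested by Benjamini-Hochberg, with a threshold of 0.05, and the SE was derived from log2FC and F. CPM use the TMM factors of the fit over all libraries. Likeness used log2(CPM + 0.5). Sequences and coordinates come from RefSeq TAIR10.1. The study itself used DESeq2 with shrunken fold changes and weighted p-values, and DESeq2 1.42.0 was run here as an alternative beside RLE factors, no filter, a replicate block, other sets of libraries and library size alone. The last was chosen after seeing the data.

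The members, the lists and the tests were chosen with earlier results of these data known. Named are all 10 members, up to 4 genes per further list with the largest absolute log2FC among those called in an overexpressor at 44 DAS, and the 3 genes most like each of the 4 members with the widest range. Marker lists for meristem (4 genes, 4.77 to 19.1 CPM) and root (4 genes, 7.15 to 89.9 CPM) were summed but used in no result.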

Additional observations from a re-analysis of the deposited data

Results flagged for a closer look

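These differences from Col-0 changed with age by the interaction test (edgeR, adjusted p below 0.05), and each value is the log2FC against Col-0 at the later age minus that at 30 DAS, with its SE, from the fit over all 39 libraries. By 37 DAS in *#17* *HCAR* changed by -0.67 ± 0.14 (adjusted p = 0.000782) and *TIC55* by -0.63 ± 0.12 (adjusted p = 0.000363), and in *#25* *HCAR* changed by -0.46 ± 0.14 (adjusted p = 0.0236). By 44 DAS in *#17* *NYC1* changed by 1.07 ± 0.28, *HCAR* by -0.40 ± 0.14, *SGR1* by 1.39 ± 0.41 and *SGRL* by -1.47 ± 0.27. By 44 DAS in *#25* *NYC1* changed by 1.07 ± 0.28, *NOL* by 0.54 ± 0.18, *HCAR* by -0.68 ± 0.14, *SGR1* by 1.28 ± 0.41 and *SGRL* by -1.53 ± 0.27. Groups of 3 libraries are too small for the test of single outlying samples.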

How the results depend on the processing

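No member of the pathway reversed its direction in a comparison it was called in, under any alternative run. The count of members called in *slim1-cr* against Col-0 at 44 DAS depended most on the setting. It was 3 as reported, 6 with DESeq2 or all libraries in 1 fit, 1 with no filter or a replicate block, and 0 with only both groups fitted. The calls over all genes moved as well. As reported, 1274 of 20499 genes were higher and 813 lower. DESeq2 gave 2689 and 2261, and all libraries in 1 fit gave 3453 and 2571 of 21040 genes. No filter gave 946 and 583 of 24847, a replicate block 613 and 344, and only both groups 6 and 6 of 19904. The cause was not tested. At 37 DAS the *slim1-cr* count went from 0 to 1 with DESeq2, and the *#17* count from 5 to 1 with only both groups fitted. Over all genes DESeq2 gave 966 higher and 1875 lower in *slim1-cr*, against 284 and 840 as reported. Only both groups gave 2895 and 2192 in *#17*, against 4019 and 3450. At 30 DAS the *#25* count went from 3 to 1 with all libraries in 1 fit and without Col-0 replicate 1, the 1 library left out for its flower organ markers (*EV* replicates 2 and 3 were higher and kept), and the *#17* count from 1 to 3 against *EV*. Over all genes 1293 were called in *#25* as reported. All libraries in 1 fit gave 515 higher and 212 lower, and leaving out Col-0 replicate 1 gave 243 and 185. In *#17* 1410 were called as reported, and 1452 were higher and 1035 lower against *EV*. For *#25* against *#17* the count of 1 at 30 DAS became 2 with DESeq2 and 0 with a replicate block, and the count of 1 at 37 DAS became 3 with DESeq2 and 0 with a replicate block or library size alone. Over all genes the 343 calls at 30 DAS became 558 higher and 609 lower with DESeq2, and 89 and 102 with the block. The 1674 calls at 37 DAS became 1656 and 1786 with DESeq2, and 557 and 517 with the block. From 30 to 37 DAS *slim1-cr* had 1 in place of 3 when fitted alone, where 87 of all genes were higher and 130 lower in place of 2866 called. The interaction count of *#25* by 37 DAS went from 1 to 2 with library size alone.

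Whether the replicate numbers pair the libraries was not tested, since same-numbered libraries were not set against differently numbered ones. Deviations of same-numbered libraries from their group means correlated at -0.55 to 0.62, with medians of -0.21 to 0.01, and the labels tie a number to no shared plant or batch. The replicate block lost 4 calls of members and added 3 (*NYC1* in Col-0 from 30 to 44 DAS, adjusted p = 0.0456, and in the interactions of *#17* *SGRL* by 37 DAS, 0.0417, and *SGR2* by 44 DAS, 0.045). With 1 library left out, the count of members called against Col-0 ran from 0 to 1 (*#17*) and 1 to 3 (*#25*) at 30 DAS, from 1 to 7 (*#17*) at 37 DAS, and from 0 to 5 (*slim1-cr*) and 5 to 7 (*#17*) at 44 DAS, where *#25* stayed at 7. For *#25* against *#17* it ran from 0 to 1 at 30 DAS and 0 to 4 at 37 DAS. From 37 to 44 DAS in *slim1-cr* it ran from 2 to 4, from 30 to 37 DAS in Col-0 from 4 to 6 and in *slim1-cr* from 2 to 3. For the interaction by 44 DAS it ran from 0 to 1 (*slim1-cr*), 2 to 4 (*#17*) and 3 to 6 (*#25*), and by 37 DAS from 2 to 5 (*#17*) and 0 to 1 (*#25*). For ageing, the counts from 37 to 44 DAS ran from 6 to 7 in Col-0 and *#17* and from 8 to 9 in *#25*, and those from 30 to 44 DAS from 6 to 8 in Col-0. All these counts rest on 3 libraries per group, and the share of all genes called with a library left out is not given beside them.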
